A study of Mus musculus with 2 samples.

Results

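Transcripts of the creatine cycle were examined in inguinal white adipose tissue, the subcutaneous fat of the mouse groin. The genes are the 7 whose mm10 symbols name the enzymes of creatine synthesis (Gatm, Gamt), the plasma membrane creatine transporter (Slc6a8), a cytosolic creatine kinase and the mitochondrial creatine kinases (Ckb, Ckmt1, Ckmt2), and tissue-nonspecific alkaline phosphatase (Alpl). All 7 were found by Ensembl identifier among the 37315 genes counted. One library came from C57BL/6 male mice given entacapone and 1 library from C57BL/6 male mice given vehicle. Both groups were 23 weeks old and carried obesity induced by a high-fat diet. Entacapone is an inhibitor of catechol-O-methyltransferase used in Parkinson disease. The labels used here state no dose, no duration and no number of mice per library. The study asked how the drug affects gene expression in this depot.

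Creatine is built in a pair of steps. GATM transfers an amidino group from arginine to glycine, and GAMT methylates the resulting guanidinoacetate with S-adenosylmethionine. Creatine kinases then move phosphate between ATP and creatine, and phosphocreatine carries it from mitochondria to sites of ATP use. In thermogenic fat of mice a futile cycle is known, in which phosphocreatine is made and then hydrolysed, so that mitochondrial respiration runs on without mechanical work. CKB and alkaline phosphatase have been assigned to that cycle in mouse adipocytes. Skeletal muscle is the textbook site of the same system, with the muscle kinase CKM in the cytosol and CKMT2 in mitochondria, while CKMT1 is the mitochondrial form of brain and epithelia.

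The entacapone library held 12979673 counted reads and the vehicle library 13620056. With 1 library in each group there is no replicate error and no significance test was made, so the differences below describe these 2 libraries only. Intervals are exact 95% intervals for counting error only, and PCR reads without molecular identifiers are not independent molecules. Levels are in CPM, counts scaled to the TMM-adjusted library size. Adipocyte markers were abundant, with Adipoq, the adiponectin gene, at 3118 CPM under entacapone and 2867 CPM under vehicle. In bulk tissue, fewer cells of a type and less RNA per cell cannot be told apart.

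RNA of other cell types differed between the libraries. For comparison, 20.2% of all measured genes were higher and 21.1% lower in the entacapone library beyond counting error. Of 20 measured skeletal muscle markers, 18 were higher and 0 lower in the entacapone library beyond counting error, and the summed level of the list was 2300 CPM under entacapone and 1469 CPM under vehicle. Of 11 measured skin and mammary epithelium markers, 7 were higher and 0 lower, with sums of 111 CPM under entacapone and 31.9 CPM under vehicle. All 12 hepatocyte markers were lower, with sums of 96.7 CPM under entacapone and 426 CPM under vehicle. Macrophage markers were lower in 13 of 14, with sums of 948 CPM under entacapone and 1884 CPM under vehicle. Fibroblast and progenitor markers were lower in 8 of 9, with sums of 4867 CPM under entacapone and 7625 CPM under vehicle. Only 3 of 8 neutrophil markers were measured (S100a8, Csf3r and Mmp9), and all 3 were lower. Among those below the filter, S100a9 had 12 reads in each library, and Cxcr2 had 9 under entacapone and 12 under vehicle. The whole list summed to 14.1 CPM under entacapone and 26.3 CPM under vehicle. Among the listed markers, Ly6g (neutrophil), Wap (mammary gland) and Tnnc2 (fast muscle) had 0 reads in both libraries. Other fast-muscle genes had many reads, such as Tnni2 with 1292 under entacapone and 864 under vehicle. The 0 reads of Tnnc2 are therefore not taken as absence of the transcript, and their cause was not tested.

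The creatine cycle genes did not move together. Both mitochondrial kinases were more than 2-fold higher in the entacapone library, whereas the other 5 genes were between 1.05-fold (Alpl) and 1.43-fold (Gatm) lower. Of those 5, only Gamt and Ckb were lower beyond counting error. Across all 13361 genes that averaged 1 CPM or more, 1.66% were at least 2-fold higher beyond counting error and 3.50% at least 2-fold lower. At any size, 41.3% of genes differed beyond counting error (20.2% higher and 21.1% lower), so that the 2 of 7 members higher and 2 of 7 lower by that looser rule lie near the background. The median log2 ratio of the members was -0.16, against 0.00 over all measured genes. All 7 members passed the filter of 1 CPM, but Ckmt1 passed only through its level under entacapone, and Gatm, Ckmt2 and Alpl were also scarce, with mean levels above those of only 15.6% (Gatm), 16.2% (Ckmt2) and 20.4% (Alpl) of measured genes.

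**Figure D1:**
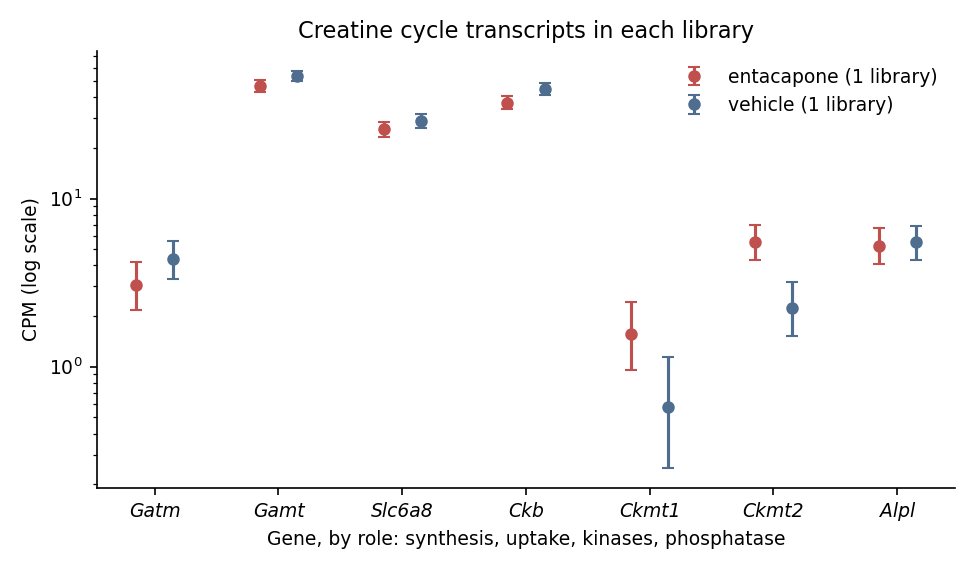
CPM (log scale) of the 7 creatine cycle genes in the entacapone library (red, left of each pair) and the vehicle library (blue, right), with exact 95% Poisson intervals for counting error. Ckmt1 and Ckmt2 are higher under entacapone, and the other 5 genes lie slightly lower, with intervals that overlap between the libraries except for Ckb.

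**Figure D2:**
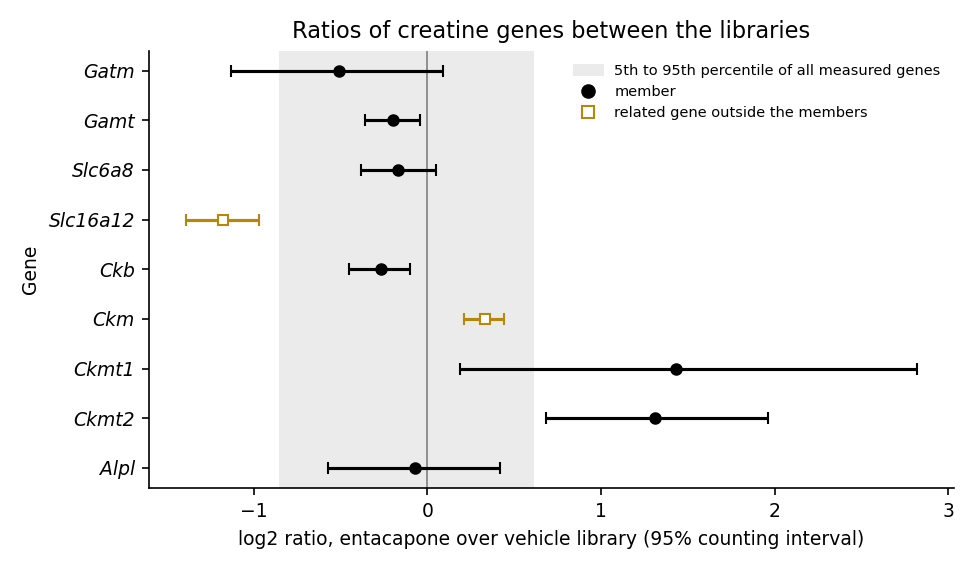
The log2 ratio of the entacapone to the vehicle library with its exact 95% counting interval, for the 7 members (circles) and for Slc16a12 and Ckm (squares); the grey band spans log2 -0.85 to 0.61, the 5th to 95th percentile of all measured genes. The ratios of both mitochondrial kinases lie above the band, although the interval of Ckmt1 reaches into it, and that of Slc16a12 lies below it.

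Creatine synthesis was represented mainly by its second enzyme. Gatm, the arginine to glycine amidinotransferase of the first step (ENSMUSG00000027199, chromosome 2, 122594467 to 122611303, GRCm38), had 39 reads under entacapone and 60 reads under vehicle. These are 3.05 CPM (2.17 to 4.17) under entacapone and 4.34 CPM (3.31 to 5.59) under vehicle. The log2 ratio of -0.51 had an interval of -1.13 to 0.09, so a difference was not detectable at this depth. Gamt, the methyltransferase of the second step (ENSMUSG00000020150, chromosome 10, 80258151 to 80261012), was the most abundant member, with 598 reads or 46.7 CPM under entacapone and 740 reads or 53.6 CPM under vehicle. Its log2 ratio was -0.20 (-0.36 to -0.04), which is 1.15-fold lower and beyond counting error, and 27.4% of measured genes had a still lower ratio. Per kilobase of exon, Gamt stood at 32.4 CPM under entacapone and 37.1 CPM under vehicle, and Gatm at 1.02 CPM under entacapone and 1.45 CPM under vehicle. Gamt is also abundant in liver, whose 12 markers were all lower in the entacapone library, and the part of liver RNA in the Gamt value was not tested.

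The substrates of synthesis are arginine, glycine and methyl groups, and 17 of 18 listed genes of their supply were measured. Of these, 4 exceeded counting error upwards and 5 downwards, beside 20.2% and 21.1% of all measured genes. The median log2 ratio was 0.00. The lowest were Gnmt, a glycine methyltransferase that consumes S-adenosylmethionine, at -3.47 (-4.97 to -2.28), and Mat1a, the hepatic S-adenosylmethionine synthetase, at -3.38 (-4.19 to -2.66). Arg1, the urea cycle arginase, was at -2.66 (-3.67 to -1.78). These 3 are known as liver genes. They were the only ones of the 17 measured that were at least 2-fold different beyond counting error. All 3 were lower, beside 3.50% of all measured genes at least 2-fold lower. Gnmt (0.469 CPM under entacapone) and Arg1 (0.938 CPM under entacapone) passed the filter only through their vehicle level. The part of RNA from liver or from other cell types in these differences was not tested. Mat2a, the S-adenosylmethionine synthetase of most other tissues and the most abundant gene of the list, was at 207 CPM under entacapone and 236 CPM under vehicle (log2 -0.19, -0.26 to -0.11). On the higher side, Shmt1, which makes glycine from serine in the cytosol, was at 0.66 (0.25 to 1.07), and the arginine transporter gene Slc7a1 was at 0.47 (0.09 to 0.85).

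Uptake showed no detectable difference at the main transporter. Slc6a8, which brings creatine into cells with sodium and chloride (ENSMUSG00000019558, chromosome X, 73673150 to 73682502), had 330 reads or 25.8 CPM under entacapone and 400 reads or 29.0 CPM under vehicle. The log2 ratio was -0.17 (-0.38 to 0.05), and the interval reaches at most 1.30-fold lower. Slc16a12, a monocarboxylate transporter family gene whose human protein carries creatine, is outside the members and differed more. It had 264 reads or 20.6 CPM under entacapone and 646 reads or 46.8 CPM under vehicle. That is 2.27-fold lower (log2 -1.18, -1.39 to -0.97), and only 2.46% of measured genes had a lower ratio. Per kilobase of exon, both transporters stood at 4.95 CPM in the entacapone library, and Slc16a12 (11.2 CPM) was above Slc6a8 (5.56 CPM) in the vehicle library. Hepatocyte, macrophage and fibroblast markers were lower in the same library, and their part in the Slc16a12 difference was not tested.

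Among the 3 kinases of the members, cytosolic Ckb was lower and both mitochondrial forms were higher; the cytosolic muscle kinase Ckm, described further on, was higher as well. Ckb, the brain-type cytosolic kinase (ENSMUSG00000001270, chromosome 12, 111669361 to 111672338), had 476 reads or 37.2 CPM (33.9 to 40.7) under entacapone and 621 reads or 45.0 CPM (41.5 to 48.6) under vehicle. It was 1.21-fold lower (log2 -0.27, -0.45 to -0.10). Ckmt2, the sarcomeric mitochondrial kinase (ENSMUSG00000021622, chromosome 13, 91853387 to 91876885), had 71 reads or 5.55 CPM (4.33 to 7.0) under entacapone and 31 reads or 2.24 CPM (1.52 to 3.19) under vehicle. Its ratio of 2.47-fold had an interval of 1.60 to 3.90 (log2 1.31, 0.68 to 1.96), and 0.958% of measured genes had a higher ratio. Ckmt1, the ubiquitous mitochondrial kinase (ENSMUSG00000000308, chromosome 2, 121357714 to 121363737), had only 20 reads or 1.56 CPM (0.955 to 2.41) under entacapone and 8 reads or 0.579 CPM (0.250 to 1.14) under vehicle. Its ratio of 2.70-fold came with an interval of 1.14 to 7.08 (log2 1.43, 0.19 to 2.82), so its size is poorly known. With a pseudocount of 0.5 CPM added to both levels its log2 ratio was 0.93, which is below 2-fold. The intervals of the levels did not overlap between the libraries for Ckmt2 and did overlap for Ckmt1.

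The bases before the annotated starts of these 3 kinase genes are shown because the mitochondrial pair was higher and Ckb lower in the same library. They come from RefSeq (GRCm38.p6), run 5′ to 3′ on the strand of the gene and end at the base before the start, except for the first Ckmt1 start, where the run stops before a GENCODE exon. Capitals mark matches on either strand to the E-box CANNTG, the CCAAT box CCAAT, the TATA box TATAAA, the GC box GGGCGG, the half-site AAGGTCA of oestrogen-related receptors and the cAMP response half-site TGACG, with no overlap between matches.
Ckmt2, chr13:91876886-91877135, minus strand: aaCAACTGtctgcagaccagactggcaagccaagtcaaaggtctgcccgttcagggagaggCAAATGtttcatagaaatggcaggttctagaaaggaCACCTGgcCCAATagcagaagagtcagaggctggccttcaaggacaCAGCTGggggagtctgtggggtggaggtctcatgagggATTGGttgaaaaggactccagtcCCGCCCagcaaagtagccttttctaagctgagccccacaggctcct
Ckmt1, first start, chr2:121357526-121357713, plus strand: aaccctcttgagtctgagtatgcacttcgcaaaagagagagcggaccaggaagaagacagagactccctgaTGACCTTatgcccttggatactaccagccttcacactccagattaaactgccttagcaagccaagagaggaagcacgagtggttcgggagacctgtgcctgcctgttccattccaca
Ckmt1, second start, chr2:121358360-121358609, plus strand: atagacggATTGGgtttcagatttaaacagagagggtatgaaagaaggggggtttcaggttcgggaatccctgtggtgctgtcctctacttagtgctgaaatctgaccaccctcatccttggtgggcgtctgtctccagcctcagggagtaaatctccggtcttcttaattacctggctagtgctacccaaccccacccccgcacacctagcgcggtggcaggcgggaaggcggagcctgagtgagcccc
Ckb, chr12:111672339-111672588, minus strand: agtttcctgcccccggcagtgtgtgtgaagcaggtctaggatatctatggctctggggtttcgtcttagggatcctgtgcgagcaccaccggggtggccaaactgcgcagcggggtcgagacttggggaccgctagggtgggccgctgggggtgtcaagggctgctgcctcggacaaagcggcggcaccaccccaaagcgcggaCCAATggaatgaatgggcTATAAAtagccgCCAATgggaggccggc

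Ckmt2 held 4 E-boxes, the motif bound by muscle regulatory factors among others, and Ckb and both Ckmt1 starts held 0. An E-box occurs in 66.2% of 32851 RefSeq promoter windows of 250 bases. Ckb held a TATA box 28 bases before its start between 2 CCAAT boxes, which begin 46 and 16 bases before it, and TATAAA occurs in 12.4% of all windows and CCAAT in 33.8%. The first Ckmt1 start held the AAGGTCA half-site (as TGACCTT, beginning 179 bases before the start), present in 4.08% of windows, and a TATA box (as TTTATA) 31 bases before the start that lies in the stretch not printed. Ckmt2 held 2 CCAAT boxes and 1 GC box, and the second Ckmt1 start held 1 CCAAT box. The GC box is found in 32.7% of windows, and TGACG, found in 17.8%, was in 0 of the 4. These matches describe letters only. A CCAAT box was thus found before each of the 3 genes, though not before the first Ckmt1 start.

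The make-up of creatine kinase transcripts differed accordingly. Ckm, the muscle kinase, was the most abundant kinase transcript in both libraries, with 1341 reads or 105 CPM under entacapone and 1155 reads or 83.6 CPM under vehicle (log2 0.33, 0.21 to 0.44). Per kilobase of exon, Ckm took 67.6% of the summed level of the 4 kinases under entacapone and 62.4% under vehicle. Ckb took 24.2% under entacapone and 33.8% under vehicle, and the mitochondrial pair took 8.20% under entacapone and 3.79% under vehicle. Without Ckm, the pair made up 25.3% of the kinase level per length under entacapone and 10.1% under vehicle. The summed level per length of Ckb, Ckmt1 and Ckmt2 was nearly the same, at 17.2 CPM per kilobase under entacapone and 17.3 under vehicle. In plain reads, Ckmt1 and Ckmt2 gave 91 of 567 reads of these 3 genes under entacapone (16.0%, exact Clopper-Pearson interval 13.1 to 19.3). Under vehicle they gave 39 of 660 (5.91%, 4.24 to 7.99), and these intervals did not overlap. The shares come from the same reads as the ratios of the 3 genes above and add no separate evidence.

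**Figure D3:**
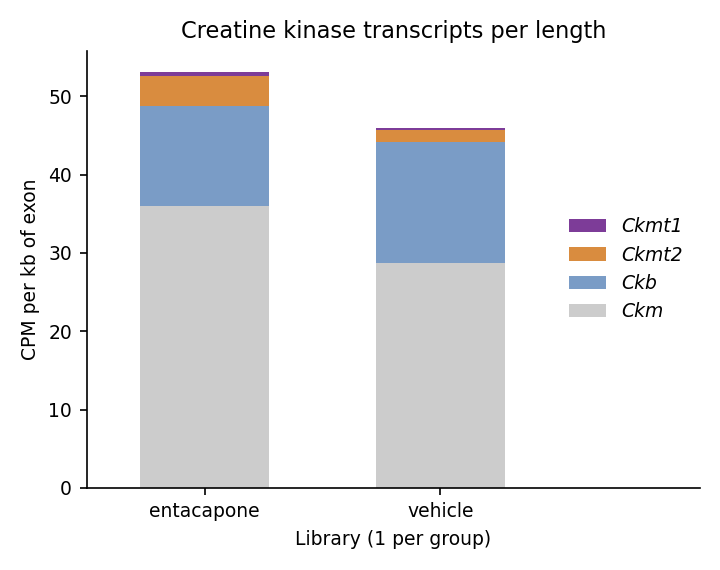
Summed level of the 4 creatine kinase transcripts in CPM per kilobase of exon, in the entacapone library (left bar) and the vehicle library (right bar), stacked by gene, with no error bars because each bar is 1 library. The entacapone bar reaches 53.2 and the vehicle bar 46.0. Ckm is the largest block, at 36.0 under entacapone and 28.7 under vehicle. The Ckmt2 block is also larger and the Ckb block smaller under entacapone.

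The mitochondrial kinases were set beside the muscle markers, since Ckmt2 is known as the mitochondrial kinase of striated muscle. The ratios of the 20 measured muscle markers ran from log2 0.06 (Cox6a2, a muscle subunit of cytochrome oxidase) to 3.35 (Myh7, the slow-fibre myosin), with a median of 0.83, and both Ckmt2 (1.31) and Ckm (0.33) lay within that range. The muscle genes differed among themselves. The slow-fibre genes Myh7, Tnni1, Tnnc1 and Tnnt1 were between 1.56 and 3.35, with sums of 20.9 CPM under entacapone and 3.69 CPM under vehicle. The fast-fibre genes Myh1, Myh2, Myh4, Tnni2, Tnnt3, Actn3, Mylpf and Pvalb were between 0.09 and 1.70, with sums of 1084 CPM under entacapone and 642 CPM under vehicle. The ranges of these sets overlapped, since Myh1 (1.70) lay above Tnnt1 (1.56). Both sets were chosen after their values were seen. Ckmt2 gave 71 of 1412 reads of Ckmt2 and Ckm together under entacapone (5.03%, 3.95 to 6.30). Under vehicle it gave 31 of 1186 (2.61%, 1.78 to 3.69). These shares restate the ratios of Ckmt2 and Ckm given above. The part of muscle RNA in the Ckmt2 and Ckm differences was not tested.

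**Figure D4:**
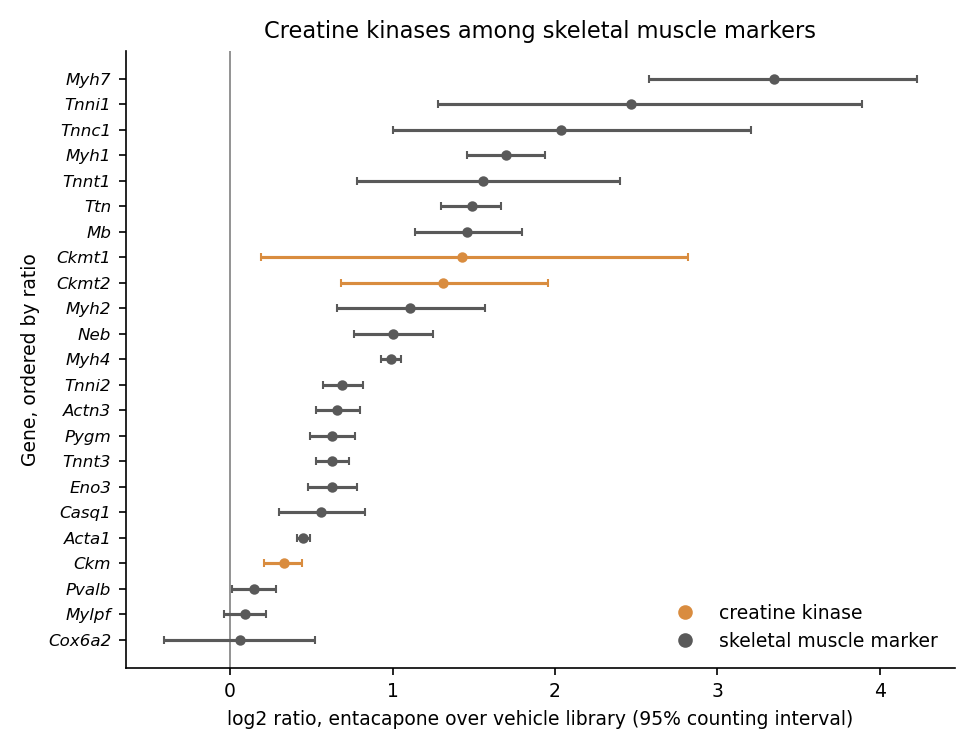
The log2 ratio of the entacapone to the vehicle library with its exact 95% counting interval for 20 skeletal muscle markers (grey) and 3 creatine kinases (orange), ordered by ratio. Ckmt2 and Ckmt1 stand next to Mb (1.46) and Myh2 (1.11), and Ckm stands lower, between Acta1 (0.45) and Pvalb (0.15).

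Ckmt1 is known from brain and epithelia, and 7 of 11 measured epithelial markers were higher in the same library beyond counting error. Krt5, a keratin of basal epithelium, had 118 reads under entacapone and 28 under vehicle (log2 2.19, 1.58 to 2.84), and Krt14, its partner, was at 1.95 (1.64 to 2.28). The 4 markers not beyond counting error were Krt8 (0.62), Krt18 (0.56), Krt10 (0.08) and Krt7 (-0.60). The part of epithelial RNA in the Ckmt1 value was not tested. For Ckb, known from brain and smooth muscle, the smooth muscle and pericyte list had 2 of 10 genes higher and 5 lower (median log2 -0.04, sums of 1340 CPM under entacapone and 1458 CPM under vehicle). The Schwann cell list had 2 of 4 measured genes higher and 1 lower, with sums of 67.6 CPM under entacapone and 75.1 CPM under vehicle. The adipocyte list itself had 6 of 10 higher and 4 lower (median 0.07), with sums of 46797 CPM under entacapone and 40861 CPM under vehicle. By the same rule, 20.2% of all measured genes were higher and 21.1% lower.

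The phosphatase of the cycle did not differ detectably. Alpl, which encodes tissue-nonspecific alkaline phosphatase (ENSMUSG00000028766, chromosome 4, 137741733 to 137796384), had 67 reads or 5.24 CPM (4.06 to 6.65) under entacapone and 76 reads or 5.50 CPM (4.33 to 6.89) under vehicle. Its log2 ratio was -0.07 (-0.57 to 0.42), so a difference of up to 1.48-fold lower or 1.34-fold higher lies within counting error. Alpl is known in endothelium and neutrophils as well. The endothelial list had 4 of 10 genes higher and 2 lower beyond counting error (median log2 0.02), beside 20.2% and 21.1% of all measured genes. It summed to 1236 CPM under entacapone and 1210 CPM under vehicle. The intestinal and germ-cell alkaline phosphatase genes Alpi and Alppl2 had 0 reads in both libraries, with upper 95% Poisson limits of 0.288 CPM under entacapone and 0.267 CPM under vehicle. Phospho1, a phosphatase of mineralising cells, had 11 reads under entacapone and 5 under vehicle, below the filter. Of the 4 measured genes of this list, 0 were higher and 2 lower beyond counting error, namely the phosphate importer Slc20a1 at -0.47 (-0.63 to -0.30) and the pyrophosphate exporter Ank at -0.27 (-0.42 to -0.13).

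Genes listed for ATP, ADP and phosphate transfer at mitochondria, among them carriers and adenylate kinases, differed little. Counting error was exceeded by 4 of the 10 measured, 3 of them higher and 1 lower and each by less than 2-fold (median log2 0.06). Among all measured genes the share exceeding it was 41.3%. Slc25a4, the ADP/ATP carrier of muscle and heart, was at 362 CPM under entacapone and 305 CPM under vehicle (0.25, 0.19 to 0.31), while Slc25a5, the carrier of most other tissues, was at 334 CPM under entacapone and 363 CPM under vehicle (-0.12, -0.18 to -0.06). Adenylate kinase genes carry the parallel phosphate shuttle, and among them Ak3, the GTP-using form of the matrix, was at 0.18 (0.12 to 0.24).

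Other thermogenic genes and genes of the calcium cycle differed in both directions. Beyond counting error, 4 of 10 measured thermogenic genes were higher and another 4 lower, beside 20.2% and 21.1% of all measured genes. Highest and most abundant was Adrb3, the beta-3 adrenergic receptor of adipocytes, at 207 CPM under entacapone and 106 CPM under vehicle (log2 0.96, 0.86 to 1.05), followed by the lipid droplet gene Cidea at 0.90 (0.70 to 1.11). Ucp1, the uncoupling protein, had 8 reads under entacapone and 45 under vehicle (log2 -2.38, -3.68 to -1.28). Elovl3 had 6 reads under entacapone and 22 under vehicle (-1.76, -3.36 to -0.42). At least 2-fold lower beyond counting error were 2 of the 10, beside 3.50% of all measured genes. At least 2-fold higher were 0, beside 1.66%. The 2 lower genes passed the filter only through their vehicle level, which favours a call of lower. Ucp1 was at 0.625 CPM under entacapone and 3.26 CPM under vehicle, and Elovl3 at 0.469 CPM under entacapone and 1.59 CPM under vehicle. Esrra, which encodes an oestrogen-related receptor of mitochondrial genes, was at 33.6 CPM under entacapone and 38.9 CPM under vehicle (log2 -0.21, -0.40 to -0.02). Its coactivator gene Ppargc1a had 48 reads under entacapone and 29 under vehicle (0.84, 0.14 to 1.55). In the calcium cycle, in which SERCA pumps and ryanodine receptors move calcium to no net effect, 2 of 4 measured genes were higher and 1 lower. The higher ones were Ryr1 (1.15, 0.86 to 1.43) and Atp2a1 (0.74, 0.64 to 0.84), the receptor and pump of skeletal muscle. Atp2a2, the pump of other tissues, was at 0.01 (-0.07 to 0.10), and Ryr2, the cardiac receptor, was at -0.69 (-1.0 to -0.38). As with Ckmt2, the part of muscle RNA in Ryr1 and Atp2a1 was not tested.

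**Figure D5:**
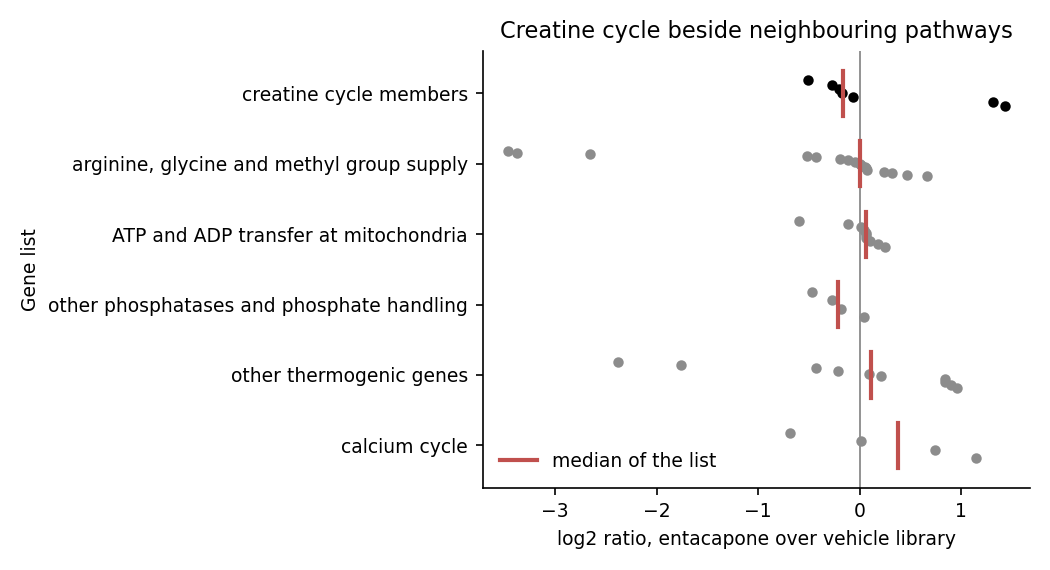
The log2 ratio of the entacapone to the vehicle library for each measured gene (points) of the creatine cycle and 5 neighbouring lists, with the median of each list (red bar). In the creatine cycle 5 genes lie between -0.51 and -0.07 and the mitochondrial kinases at 1.31 and 1.43, apart from the rest.

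Ordered by level per kilobase of exon, the members spanned a wide range in both libraries. Under entacapone the order was Gamt (32.4 CPM per kilobase), Ckb (12.8), Slc6a8 (4.95), Ckmt2 (3.73), Alpl (1.30), Gatm (1.02) and Ckmt1 (0.626). The intervals of Slc6a8 (4.43 to 5.51) and Ckmt2 (2.92 to 4.71) overlapped, as did those of Alpl (1.01 to 1.65) and Gatm (0.722 to 1.39). The interval of Gatm also overlapped that of Ckmt1 (0.382 to 0.967). Overlap of separate intervals does not show that levels are equal, and these neighbours were not compared directly. Under vehicle the 3 leading genes were the same, at 37.1, 15.5 and 5.56 CPM per kilobase. Ckmt2 (1.51), Gatm (1.45) and Alpl (1.36) followed, with intervals that all overlapped, and Ckmt1 (0.232) came last. By these intervals, Ckmt2 stood clear of Alpl and Gatm only in the entacapone library.

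The protein-coding genes closest to each member in both libraries were found by the Euclidean distance of log2(CPM + 0.5), over 2 libraries only. For Ckmt1 these were Dsc3, a desmosomal cadherin, and Runx3, a transcription factor, each with the same 1.56 CPM under entacapone and 0.579 CPM under vehicle. At 20 and 8 reads such ties mean only equal small counts, and tied genes were ordered by symbol. Within a distance of 0.1, Ckmt1 had 6 genes. Ckmt2 had no gene within a distance of 0.1, and its nearest was Scn4b, a sodium channel subunit, with 5.16 CPM under entacapone and 2.17 CPM under vehicle. The other members had between 22 (Gatm) and 89 (Slc6a8) genes within that distance, and the nearest were Bend7 for Gatm, Klhl22 for Gamt, Ube2e2 for Slc6a8, Entpd2 for Ckb and Cbx2 for Alpl.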

How the data were processed

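Poly(A) RNA was sequenced from TruSeq v2 libraries with 101-base reads, per the labels' protocols. The authors deposited raw counts of reads by Ensembl gene. TopHat2 2.1.1, HTSeq 0.6.0 and mm10 appear in the submitters' processing notes. Counting mode and annotation release were not stated there. The kit does not mark strand. GENCODE M21 (GRCm38, the assembly of mm10) matched 35449 of 37315 identifiers.

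CPM were computed with edgeR 4.0.16 TMM factors (0.986 for entacapone, 1.014 for vehicle). Ratios carry exact 95% intervals, obtained by conditioning on the reads of a gene summed over both libraries (Clopper-Pearson), and levels carry exact Poisson intervals. A gene averaging 1 CPM or more was called beyond counting error where its ratio interval excluded 1. A scarce gene can pass this filter through 1 library alone, which favours a call of a difference. Ckmt1, Ucp1, Elovl3, Gnmt, Arg1, Tnni1 and Tnnc1 passed in this way, among others. List medians used a pseudocount of 0.5 CPM. Lengths were unions of GENCODE exons. Intervals were run on simulated Poisson counts, which is the model they assume. Those counts hold no spread between animals and no PCR duplicates, so they cannot check the intervals against either.

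Members and the 17 lists were chosen with earlier results of these data known. The rule named the members, Ckm, preset genes and the extreme or most abundant genes of each list; the other genes were chosen after their values were seen. Of 101-base windows of Ckb transcripts, 4.50% recur in the pseudogene Gm12892 (0 reads in both libraries), and 5.61% of Ckm windows in the antisense gene A930016O22Rik (1 read under entacapone, 0 under vehicle). The other members shared 0 windows. Alternatives were total counts, DESeq2 1.42.0 and upper-quartile scaling, TMM without muscle, epithelium and hepatocyte markers, other filters, pseudocounts and fold limits, and the longest transcript as length.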

Additional observations from a re-analysis of the deposited data

How the results depend on the processing

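Every member kept its direction and its side of the counting interval under the 4 other library scalings, with log2 ratios of 1.27 to 1.32 for Ckmt2, 1.39 to 1.45 for Ckmt1, -0.31 to -0.26 for Ckb and -0.24 to -0.18 for Gamt. The median of the members lay between -0.20 and -0.15 under all alternatives run. With a pseudocount of 0.5 CPM in the ratio, Ckmt1 was at 0.93 and no longer 2-fold higher, and Ckmt2 was at 1.14. With a minimum mean of 5 CPM, 4 members remained measured and the mitochondrial kinases were not among them, so 0 members were at least 2-fold different (2 at 1 CPM) and 2 were beyond counting error (4 at 1 CPM). With the longest transcript as length, a choice added for the kinase shares after seeing the data, the mitochondrial share of the 3 kinases was 26.4% under entacapone and 10.6% under vehicle, and 5 of 7 members kept their place in the vehicle order. Depth limits Ckmt1 most: 28 reads in all give an interval that reaches a factor of 2.62 above its ratio, against 1.12 for Gamt with 1338 reads. No paired analysis was possible because each group holds 1 library.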
